A study of Mus musculus with 22 samples.

Results

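CD8+ T cells sorted from the livers of TG Aire-/- mice were compared with those of Aire-/- mice, using 1 RNA-seq library of each genotype, 2 of the 22 samples in the series. The series holds bulk RNA-seq of liver, thymus and hepatic CD8+ T cells from mice that its title names dnTGFβRII Aire-/-, and from their littermates. The samples were chosen by their labels, as the TG Aire-/- and the Aire-/- column of the CD8+ T table. A further CD8+ T library, from TG Aire+/- mice, is given beside them for orientation and was not compared. All 3 were from C57BL/6 mice of 2 to 4 weeks with no treatment, and each was made from 500000 cells taken by flow sorting. Both compared libraries carry the Aire-/- genotype, so they differ by the transgene alone as far as the labels go, and neither a wild-type nor a transgene-only CD8+ T library was analysed here. TG was read as the dominant-negative type II TGF-β receptor of the title. In the published dnTGFβRII strain its expression is directed to T cells by a Cd4 promoter, which the labels do not state.

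TGF-β binds a receptor made of type I and type II chains, and the type I chain then phosphorylates Smad2 and Smad3, which enter the nucleus with Smad4. In T cells the pathway restrains expansion and effector function and induces genes of tissue residence such as Itgae, and a truncated type II receptor that cannot signal blocks it. Aire acts in the thymus, where it makes medullary epithelial cells express tissue-restricted antigens, and T cells themselves make little or none of it. The liver holds naive CD8+ T cells passing through its vessels as well as memory and effector cells that stay in it.

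Each genotype had 1 library, so no difference below has a replicate check and none was tested. Animal and library variation cannot be told apart from the genotype. Values are RPKM (read counts divided by gene length and by the library's mapped reads) as the authors deposited them, and every difference is TG Aire-/- minus Aire-/- on log2(RPKM + 1), a scale that understates the change of low genes. Where 3 values follow each other, they are in the order Aire-/-, TG Aire+/-, TG Aire-/-. On this scale a difference of 1 is a factor of 2 in RPKM + 1. Of 24786 genes in the table, 7841 reached 5 RPKM in either library. Of these, 68 were set aside as genes of erythroid cells (12), B and plasma cells (10) and myeloid cells (46), leaving 7773. Depth was inferred from the steps between low values at 22000000, 21700000 and 20900000 reads. At that depth 3 reads on a gene of 2000 bases make 0.0682 to 0.0718 RPKM, a floor that covers counting error only.

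The label of CD8+ T cells held in both libraries. Cd8a, the α chain of the co-receptor for MHC class I (GRCm38 chromosome 6, 71373427 to 71379173, GENCODE vM21), stood at 236, 260 and 172 RPKM. Cd8b1, the β chain encoded beside it (chromosome 6, 71322788 to 71337494), stood at 407, 500.1 and 416 RPKM. Cd3e, a signalling chain of the T cell receptor complex (chromosome 9, 44998740 to 45009627), stood at 114, 138 and 129 RPKM. The differences between TG Aire-/- and Aire-/- were −0.45, 0.03 and 0.17, and the sign of that of Cd8b1 turned under both other scalings and with genes of like length set to a median of 0. That of Cd3e turned under equal-sum scaling (−0.07) and the length setting (−0.07). Of 15 genes of T cell identity that reached 5 RPKM, 0 differed by 1, and their median difference was 0.05. Cd4 stood at 1.97, 2.67 and 2.00 RPKM and Foxp3, the transcription factor of regulatory T cells, at 1.59, 1.45 and 1.95. Aire was at or below 0.0006 RPKM in all 3 libraries, so its deletion cannot be checked in these cells. Tgfbr2, the gene of the receptor chain that the transgene mimics (chromosome 9, 116084293 to 116175360), stood at 51.0, 49.4 and 31.3 RPKM. A value for the whole gene does not separate the transgene from the endogenous transcript.

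RNA of other cells was unequal between the libraries, and most of it was in Aire-/-. Erythroid genes summed to 37349 RPKM in Aire-/-, 12.2% of the library's summed RPKM, against 565 or 0.174% in TG Aire-/- and 499 in TG Aire+/-. In this sum Hbb-bt and Hbb-b2 have identical values, 4353 RPKM each in Aire-/-, and Hbb-bs and Hbb-b1 near-identical ones, 5815 and 5886. The sum and its share may therefore count the same reads more than once. Myeloid genes summed to 2921, 278 and 1228 RPKM in Aire-/-, TG Aire+/- and TG Aire-/-, and B and plasma cell genes to 129, 42.9 and 23. Lyz2, the lysozyme of macrophages and neutrophils, stood at 359, 4.84 and 35 RPKM. Further kinds of cell appeared when the largest differences were read, and their lists were made after the values were seen. Eosinophil genes summed to 202 RPKM in Aire-/- against 3.47 in TG Aire-/-, and bile duct and pancreatic duct genes to 193 against 5.56. The eosinophil sum holds both Ear3 and Ear12, whose values are identical, at 24.6 RPKM each in Aire-/-. In Aire-/- the duct sum held Clu at 70.4 and Dmbt1 at 69.0 RPKM, and 6 of its 19 genes reached 5 RPKM. Krt19 was among the 6, at 10.8 RPKM, whereas Krt7 and Sox9 stood at 0.338 and 0.0219. The cell source of the duct list's RNA was not tested. Hepatocyte genes summed to 50.8, 10.8 and 20.9 RPKM, with albumin at 3.04, 0.838 and 0.659. Markers of natural killer cells and innate lymphoid cells summed to 822, 746 and 563 RPKM, and Ncr1, which natural killer cells express and most T cells do not, stood at 2.77, 1.53 and 0.0637.

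**Figure D1:**
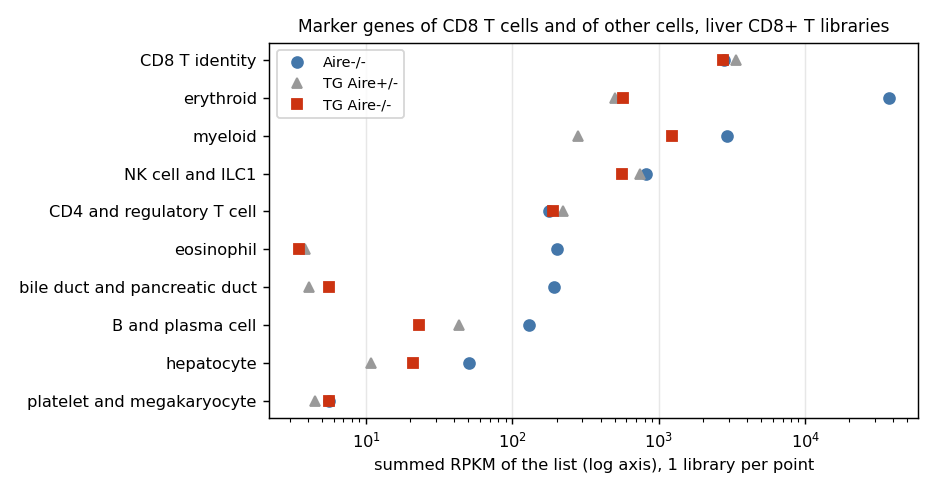
Summed RPKM (x axis, log scale) of marker genes of CD8 T cells and of 9 other kinds of cell (y axis), with 1 point per library and no error bars. CD8 T identity lies at nearly the same place in the 3 libraries, whereas the erythroid sum runs from 499 to 37349 RPKM. The eosinophil and duct sums, of lists made after the values were seen, are high in Aire-/- alone.

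The libraries may also differ in the animals that went into them. Xist, which is transcribed from the inactive X chromosome of females, stood at 12.2 RPKM in Aire-/- and 11.6 in TG Aire-/-. The Y-linked genes Ddx3y and Eif2s3y stood at 14.3 and 17.4 RPKM in Aire-/- and at 2.95 and 8.22 in TG Aire-/-. In TG Aire+/- the 3 genes stood at 28.5, 0.536 and 1.13 RPKM, a mix with more Xist and less Y-linked RNA than in either of the others. Each whole liver of the second batch in this series showed either Xist or Y-linked RNA at such a level and not both. Both compared CD8+ T libraries thus held RNA of both sexes, in different proportions, and the labels do not say how many animals were pooled. The part of the animals' sex in the differences, and in the values of TG Aire+/- beside them, was not tested.

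Across the 7773 genes the median difference was 0.16, with quartiles of −0.39 and 0.65, and the levels in the 2 libraries correlated at r = 0.819 across genes, which are not independent replicates. TG Aire-/- was higher by at least 1 for 982 genes (12.6%) and lower for 728 (9.37%). At a difference of at least 2 the order turned, with 100 genes higher and 152 lower. The balance rests on the scaling. Of the genes past 1, 57.4% were higher in TG Aire-/- with the values as deposited. The share was 42.5% after median-of-ratios scaling (696 higher, 943 lower) and 36.5% after scaling to an equal sum without the set-aside and the 20 most abundant genes (602 higher, 1047 lower). Lists of genes are therefore read below against the median of 0.16 and against these shares. Counts of list members past 1 are read against the 12.6% higher and 9.37% lower among all genes.

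**Figure D2:**
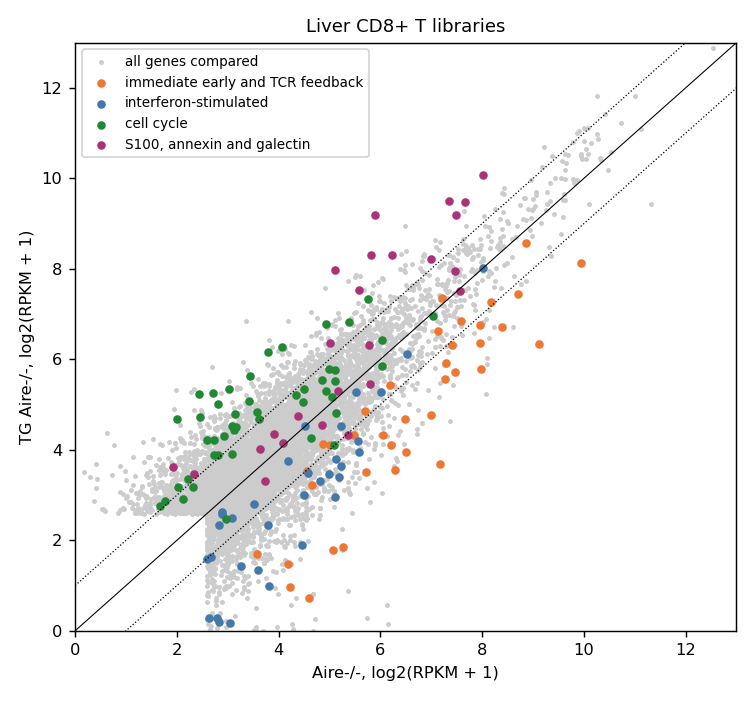
Level of each of the 7773 genes in Aire-/- (x axis) and TG Aire-/- (y axis), both as log2(RPKM + 1), with 1 library on each axis. The solid line marks equal values and the dotted lines a difference of 1; immediate early (orange) and interferon-stimulated genes (blue) lie below the solid line for the most part, cell cycle (green) and S100, annexin and galectin genes (purple) above it.

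Gene length moved with the difference. The summed exon length, known for 7672 of the genes (98.7%), had a median of 2604 bases among genes higher in TG Aire-/-, 5421.5 among genes lower and 4282 among all of them, and its Spearman rho with the difference was −0.356 across genes. Of the shortest of 10 equal bins of genes 29.9% were higher by 1 and 9.51% lower, with a median difference of 0.61. Of the longest bin 0.781% were higher and 21.4% lower, with a median of −0.47. After the median of each bin was set to 0, an alternative chosen after seeing the data, 558 genes were higher and 788 lower, so that 41.5% of the genes past 1 were higher. The value after this setting is given below for each list whose median it moved by over 1.5 times. The labels name Illumina or BGI library protocols without saying which library had which. The part of RNA quality or library preparation in this pattern was not tested.

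**Figure D3:**
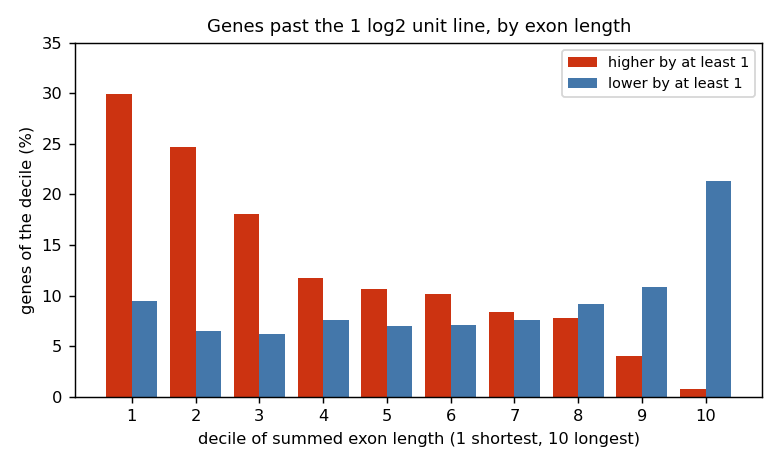
Share of genes (y axis, %) that were higher (red) or lower (blue) by at least 1 in TG Aire-/-, for 10 bins of summed exon length from shortest to longest (x axis), about 767 genes a bin. The red bars run from 29.9% in the shortest bin to 0.781% in the longest, and the blue bar of the longest bin, 21.4%, is the highest of its colour.

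Promoters of 4 genes are shown because they carry, in a few letters, the elements by which 3 of the gene groups below are known to be controlled. They are the 200 bases before the gene's start, read 5′ to 3′ on the gene's strand, from RefSeq on GRCm38.p6, with matches in capitals. Isg15 (chr4:156200819-156201018, minus strand) holds 3 overlapping matches to the interferon-stimulated response element, searched as TTTC, any 2 bases and TTTC again on both strands, and Rsad2 (chr12:26456453-26456652, minus strand) holds 1. Hspa1a (chr17:34972157-34972356, minus strand) holds 1 match to the heat shock element, searched as GAANNTTC or TTCNNGAA. Cdk1 (chr10:69352913-69353112, minus strand) holds 2 matches to the cell cycle homology region, searched as TTTGAA on both strands. The RefSeq start used for Cdk1 lies within the GENCODE span of the gene, which ends at 69352938. The second printed match of Cdk1 falls inside that span.
Isg15: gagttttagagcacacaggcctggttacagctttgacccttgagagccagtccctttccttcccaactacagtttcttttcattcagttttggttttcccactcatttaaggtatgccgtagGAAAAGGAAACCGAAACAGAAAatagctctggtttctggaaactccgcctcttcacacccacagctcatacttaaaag
Rsad2: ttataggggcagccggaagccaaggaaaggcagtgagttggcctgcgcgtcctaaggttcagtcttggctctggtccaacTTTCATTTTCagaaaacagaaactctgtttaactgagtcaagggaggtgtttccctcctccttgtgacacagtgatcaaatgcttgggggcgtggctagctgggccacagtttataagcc
Hspa1a: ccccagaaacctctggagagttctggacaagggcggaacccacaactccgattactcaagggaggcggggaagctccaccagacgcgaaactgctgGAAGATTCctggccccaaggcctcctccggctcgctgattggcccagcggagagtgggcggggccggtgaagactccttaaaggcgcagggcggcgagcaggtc
Cdk1: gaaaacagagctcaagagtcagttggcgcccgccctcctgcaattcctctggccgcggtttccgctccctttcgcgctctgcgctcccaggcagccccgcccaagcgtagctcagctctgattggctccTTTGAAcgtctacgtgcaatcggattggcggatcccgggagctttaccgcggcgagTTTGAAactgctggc
In the 250 bases before the start, these letters occurred in 2.88%, 10.2% and 11% of the 6206 promoters found among the 7773 genes, in the order in which the elements are named. As 79.8% of the genes had a promoter available, a comparison of these shares between higher and lower genes would be incomplete and is not reported here. A match is a description of the letters and not a site in use.

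**Figure D4:**
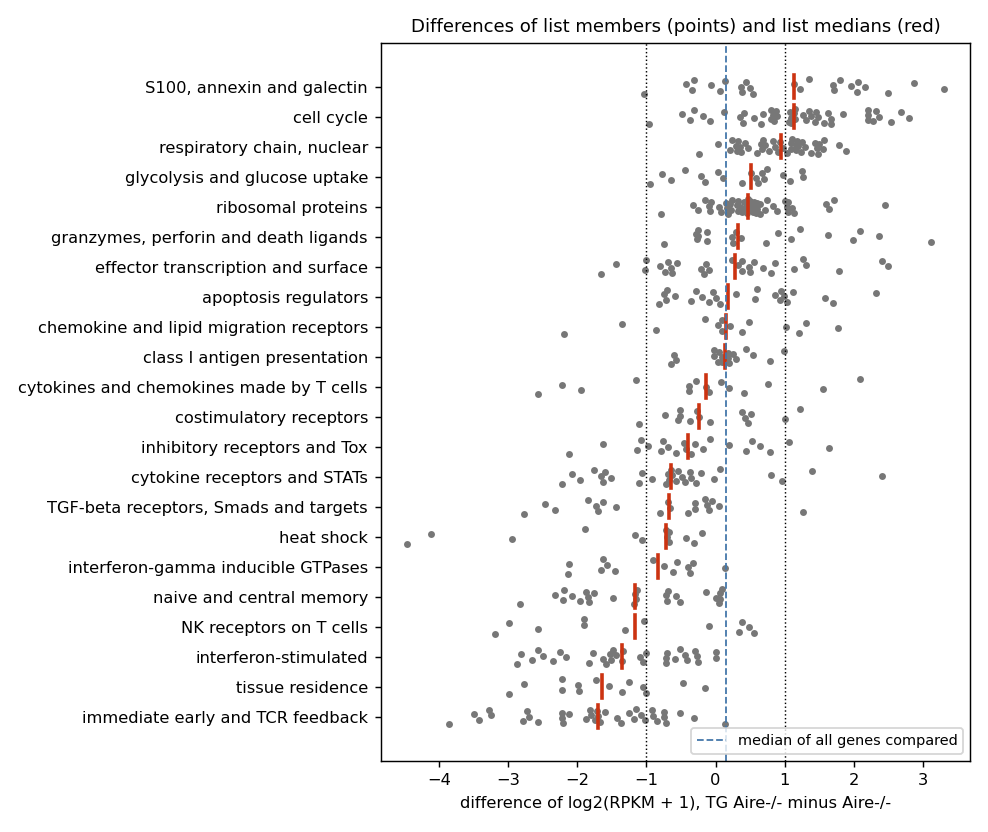
Difference of each list member with 5 RPKM (grey points, x axis, log2(RPKM + 1) in TG Aire-/- minus Aire-/-) in 22 lists (y axis), with the list's median in red, the median of all genes as a dashed blue line at 0.16 and dotted lines at a difference of 1. Medians run from −1.71 for immediate early genes to 1.14 for cell cycle and for S100, annexin and galectin genes.

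Immediate early genes and feedback genes of the T cell receptor were lower in TG Aire-/- as a group. Of 37 that reached 5 RPKM, 28 were lower by at least 1 and 0 higher, where 9.37% of all genes were lower, and their median difference was −1.71. Nr4a3, an orphan nuclear receptor switched on within the first hours of receptor signalling (chromosome 4, 48045153 to 48086447), stood at 23.1, 41.0 and 0.66 RPKM, a difference of −3.86. Its relatives Nr4a1, at 127, 277 and 26.4 RPKM, and Nr4a2, at 73.3, 58.9 and 16.1, differed by −2.22 and −2.12. For each of these 3 receptors the TG Aire-/- library was the lowest of the 3. Jun, a subunit of the AP-1 transcription factor (chromosome 4, 95049034 to 95052222), stood at 144, 171 and 11.9 RPKM (−3.49). Its partner Fosl2 stood at 37.5, 83.0 and 2.59 RPKM (−3.42), and Atf3, of the same superfamily, at 17.7, 12 and 0.96 (−3.25). Rel, a subunit of NF-κB, stood at 32.6, 24.7 and 2.47 RPKM (−3.28), and Tnfaip3, the ubiquitin-editing enzyme that limits NF-κB, at 552, 562 and 79.4 (−2.78). In all 5 the TG Aire+/- value was nearer on the log2 scale to that of Aire-/-.

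Heat shock genes lay in the same direction. All 13 that reached 5 RPKM were below 0, 6 of them by at least 1, with a median of −0.72 that became −1.09 with length medians set to 0. Hspa1a and Hspa1b, the inducible Hsp70 genes (Hspa1a at chromosome 17, 34969190 to 34972156), stood at 18.2 and 25.3 RPKM in Aire-/-, 20.1 and 23.5 in TG Aire+/-, and 0.11 and 0.19 in TG Aire-/-. They are near-identical copies, so their reads may be shared between them. Hsph1, a co-chaperone of Hsp70, stood at 54.3, 31.8 and 6.18 RPKM (−2.95), and Hspa5, the chaperone of the endoplasmic reticulum, at 387, 433 and 104 (−1.88). Hsp90aa1 and Dnaja1 differed by −1.17 and −1.06. Of chaperones made without stress, Hspa8 stood at 1103, 1024 and 694 RPKM (−0.67) and Hsp90ab1 at 767, 722 and 568 (−0.43). The mitochondrial Hspd1 and its partner Hspe1 differed by −0.67 and −0.19. Immediate early and heat shock genes are also known to respond to the isolation of cells from tissue, and the part of sample handling in these differences was not tested.

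Interferon-stimulated genes were lower in TG Aire-/-. Of 33 with 5 RPKM, 21 were lower by at least 1 and 0 higher, with a median of −1.36. Isg15, a ubiquitin-like protein (chromosome 4, 156199424 to 156200818), stood at 13, 31.7 and 0.99 RPKM (−2.81). Rsad2, which makes an antiviral nucleotide (chromosome 12, 26442746 to 26456452), stood at 5.89, 2.51 and 0.22 RPKM (−2.49). The promoters of both are printed above. The oligoadenylate synthetase genes Oas1a, Oas2 and Oasl2 stood at 5.18, 6.15 and 7.24 RPKM in Aire-/- and at 0.213, 0.138 and 0.127 in TG Aire-/-. In TG Aire+/- these 3 were at 9.09, 2.74 and 2.81, above the TG Aire-/- library in each case. Rtp4 differed by −2.56. Of the factors that carry the signal, Irf7 stood at 36.4, 61.0 and 11.5 RPKM and Irf9 at 27.2, 36.8 and 8.90. Ly6e and Ifi35 in the same list differed by 0.01 and 0.00. Of 14 interferon-γ inducible GTPases, which attack vacuoles of intracellular microbes, 6 were lower by at least 1, with a median of −0.83. Gbp10 stood at 17.6, 18.2 and 3.26 RPKM and Gbp2 at 30.7, 31.0 and 10.6, and Tgtp1 and Tgtp2, which are near-identical, differed by −1.63 and −1.58.

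Genes of class I antigen presentation, which interferons also induce, lay close to the median of all genes. Of its 18 genes 0 differed by 1 in either direction, and the median was 0.14 as deposited and −0.24 with length medians set to 0, with its sign turning under 4 of the alternatives. B2m, the light chain of class I molecules, stood at 2223, 2898 and 2179 RPKM in Aire-/-, TG Aire+/- and TG Aire-/-, and H2-K1, a heavy chain, at 886, 962 and 1013. Their differences were −0.03 and 0.19. Psmb8, a subunit of the immunoproteasome, was at 94.6, 115 and 188 RPKM, and Nlrc5, the activator of class I genes, at 43.4, 45.4 and 29.0.

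Genes of naive and central memory cells were lower in TG Aire-/-. Of 26 members with 5 RPKM, 15 were lower by at least 1 and 0 higher, with a median of −1.16. Ccr7, the chemokine receptor that brings T cells into lymph nodes (chromosome 11, 99144196 to 99155077), stood at 271, 426 and 58.4 RPKM (−2.19). Among transcription factors of quiescent cells, Tcf7 stood at 269, 209 and 117 RPKM (−1.19), Satb1 at 57.4, 42.9 and 15.3 (−1.84), Bach2 at 7.22, 4.63 and 1.44 (−1.75) and Foxo1 at 37.2, 32.4 and 16.3 (−1.14). Id3 and Il6ra differed by −2.33 and −2.08, and Igfbp4 and Als2cl by −2.20 and −1.96. Some other members of the list lay nearer to level. Il7r, the receptor of the survival cytokine IL-7, stood at 108, 98.2 and 72.0 RPKM (−0.58), S1pr1, the receptor for exit into blood, at 85.7, 105 and 91.3 (0.09), and Bcl2, which blocks apoptosis, at 31.9, 22.2 and 33.4 (0.06).

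**Figure D5:**
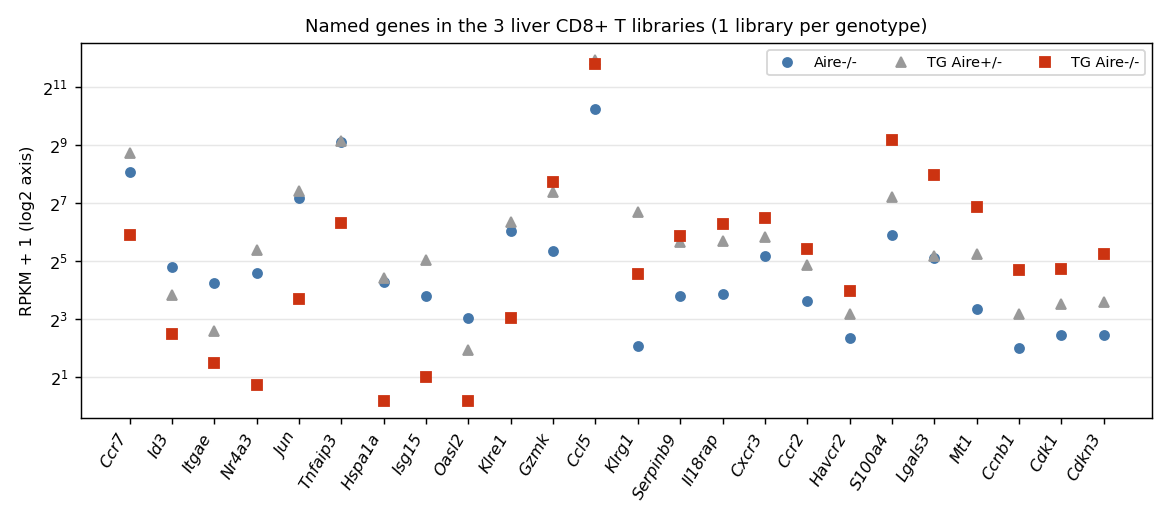
RPKM + 1 (y axis, log2 scale) of 24 named genes (x axis) in Aire-/- (blue circles), TG Aire+/- (grey triangles) and TG Aire-/- (red squares), with 1 library per genotype and no error bars. The red squares are the lowest of the 3 from Ccr7 to Klre1 and the highest from Gzmk to Cdkn3, except at Klrg1, where TG Aire+/- is highest, and at Ccl5, where the transgenic libraries nearly coincide.

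The TGF-β pathway was lower at some of its inhibitors and some targets, and nearer to level at Tgfbr1 and the signalling Smads. Of 20 listed genes with 5 RPKM, 8 were lower by at least 1 and 1 higher, with a median of −0.67. Smad7, the inhibitory Smad that TGF-β induces, stood at 25.5, 20.6 and 7.14 RPKM (−1.70). The co-repressors Skil, Tgif1 and Tgif2 differed by −1.73, −1.85 and −2.47, and Tgif2 stood at 20.5, 19.5 and 2.87 RPKM. For Smad7 and these 3 the TG Aire+/- library, which carries the transgene too, was near Aire-/-. Further inhibitors of the pathway in the list, Ski, Smurf2 and Smurf1, differed by less than 1, at −0.81, −0.66 and 0.05. Itgae, the CD103 integrin chain that TGF-β induces (chromosome 11, 73090583 to 73147446), stood at 18.0, 5.00 and 1.77 RPKM (−2.77), and here both transgenic libraries were below Aire-/-. Id2 and Id3, inhibitors of E proteins, went opposite ways, Id2 from 141 to 339 RPKM (1.26) and Id3 from 26.7 to 4.52. The ligand Tgfb1 stood at 52.1, 51.8 and 48.9 RPKM, and the receptor Tgfbr1 at 5.05, 4.77 and 3.58 (−0.40). Tgfbr2, whose values are given above, differed by −0.69, close to the median of the list. The signalling Smad2, Smad3 and Smad4 differed by −0.30, −0.30 and −0.15. Tgfbi, a matrix protein that macrophages also express, stood at 12.5, 0.323 and 3.95 RPKM, and the myeloid sums given above lay in the same order. The part of myeloid RNA in this difference was not tested.

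Genes of tissue residence were lower in TG Aire-/-. Of 14 with 5 RPKM, 12 were lower by at least 1 and all 14 were below 0, with a median of −1.64; 6 of the 14 are also in another list. Itga1, the CD49a chain that binds collagen, stood at 6.80, 7.02 and 0.989 RPKM (−1.97), and Xcl1, a chemokine for cross-presenting dendritic cells, at 112, 38.3 and 23.2 (−2.23). Osgin1 and Rgs2 differed by −3.00 and −1.99. Cd69, which retains T cells in tissue and is also an early activation gene, stood at 171, 282 and 123 RPKM (−0.47). Cxcr6, the receptor that holds T cells in liver sinusoids, was the nearest to level, at 32.1, 25.2 and 28.8 (−0.15).

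Receptors shared with natural killer cells were lower for some members and not for others, also within the Klrc family. Of 12 with 5 RPKM, 7 were lower by at least 1 and 0 higher, with a median of −1.17 that became −0.09 with a minimum of 20 RPKM, which fewer of them reach. Klre1, a lectin-like receptor (chromosome 6, 129577905 to 129585827), stood at 64.5, 79.8 and 7.25 RPKM (−2.99). Klra5, Klra6 and Klra7, of the Ly49 family, differed by −3.19, −2.57 and −1.91, and Klrc2 and Klrc3 by −1.31 and −1.90. The Klra genes are near-identical in parts and uncertain as single genes. Klrd1 and Klrc1, which form the inhibitory CD94 and NKG2A receptor, stood at 116, 135 and 162 RPKM and at 44.9, 61.9 and 66.7, with differences of 0.48 and 0.56. Klrk1, the activating NKG2D receptor, stood at 28.7, 39.7 and 26.8. The natural killer markers given above summed to less in TG Aire-/- too, but of 13 with 5 RPKM 11 also stand in a list described here, Klre1, Klra7 and Klrc2 among them, so the sum is not independent of those lists. The part of natural killer cells in this difference was not tested.

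Effector genes went both ways. Of 30 transcription factors and surface proteins, 6 were higher by at least 1 and 4 lower, beside 12.6% and 9.37% of all genes. Their median was 0.28 beside 0.16 for all genes, and 0.10 with length medians set to 0. Klrg1, an inhibitory receptor of terminal effector cells (chromosome 6, 122270596 to 122282882), stood at 3.18, 101.6 and 22.5 RPKM (2.49). Cx3cr1 and S1pr5, found with it on such cells, stood at 3.45, 50.3 and 5.23 RPKM and at 1.32, 35.6 and 2.23, so that TG Aire+/- was the highest of the 3 for all of them. Il18rap, a chain of the IL-18 receptor, stood at 13.6, 50.6 and 76.3 RPKM (2.41), and Ly6a, an activation antigen, at 22, 50.2 and 78.5 (1.79). Tbx21 and Eomes, the T-box factors that drive the effector programme, stood at 21.1, 58.0 and 19.7 and at 23.8, 39.1 and 21.6 RPKM, and differed by −0.09 and −0.13. Irf4 and Irf8 differed by −1.02 and −1.44, and Il21r stood at 62.6, 84.4 and 19.1 RPKM (−1.66).

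The list of granzymes, perforin and death ligands also holds protease inhibitors and other genes of granules and their release. Of its 20 genes with 5 RPKM, 7 were higher by at least 1 and 0 lower, beside 12.6% and 9.37% of all genes. The 7 were Gzmk, Gzma, Fasl, Serpinb9, Serpinb9b, Serpinb6b and Rab27a. The median of the list, 0.33, became −0.01 with length medians set to 0. Gzmk, a tryptase-like granzyme (chromosome 13, 113171608 to 113225908), stood at 40.0, 167 and 211 RPKM (2.37). Gzma, another tryptase, stood at 575, 1688 and 1222 RPKM (1.09), and Fasl, the ligand of the Fas death receptor, at 12.9, 39.8 and 31.5 (1.23). Serpinb9, an inhibitor that protects the cell from granzyme B, stood at 12.8, 49.4 and 57.6 RPKM (2.09), and its relatives Serpinb9b and Serpinb6b differed by 3.12 and 1.63. Rab27a, which docks lytic granules, differed by 1.99. Gzmb and Prf1, the main granzyme and the pore that admits it, stood at 412, 694 and 493 and at 22.9, 44.4 and 18.8 RPKM, with differences of 0.26 and −0.27. For Gzma, Gzmb, Prf1 and Fasl the TG Aire+/- library was the highest of the 3.

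Among cytokines and chemokines 2 of 15 were higher by at least 1 and 4 lower, beside 12.6% and 9.37% of all genes. Their median of −0.14 became −0.75 with length medians set to 0. Ccl5, a chemokine stored by memory CD8+ T cells (chromosome 11, 83525778 to 83530518), stood at 1226, 3962 and 3614 RPKM (1.56). Il10, an immunosuppressive cytokine, stood at 0.909, 0.285 and 7.13 RPKM (2.09), the highest in TG Aire-/-. Ifng, the main effector cytokine of these cells, stood at 71.3, 187 and 64.7 RPKM (−0.14), and Tnf at 27.5, 17.4 and 6.39 (−1.95). Cxcl10, itself induced by interferon, was at 13.7, 23.5 and 1.5 (−2.56). Of 14 migration receptors 4 were higher and 2 lower, with a median of 0.15 and of −0.10 after the same setting. Ccr2, the receptor for inflammatory monocyte chemokines, stood at 11.4, 28.3 and 41.6 RPKM (1.78), Cxcr3, the receptor for Cxcl10, at 35.1, 55.2 and 88.3 (1.31), and Cxcr4, the receptor for Cxcl12, at 72.4, 93.6 and 169 (1.21). The signs of the medians of both lists turned under at least 1 alternative.

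The list of inhibitory receptors and Tox, which also holds intracellular regulators such as Ptpn6, Dgka, Cblb and Socs1, went both ways. Of its 22 genes with 5 RPKM, 2 were higher by at least 1 and 4 lower, beside 12.6% and 9.37% of all genes. Their median of −0.40 became −0.64 with length medians set to 0. Havcr2, which encodes TIM-3, stood at 4.03, 7.92 and 14.7 RPKM (1.64), and Ctla4, which competes with CD28 for its ligands, at 40.8, 41.4 and 86.1 (1.06). Pdcd1, which encodes PD-1, stood at 20.9, 5.18 and 15.2 RPKM (−0.43), Lag3 at 19.0, 7.77 and 26.1 (0.44), Tigit at 64.7, 47.2 and 113 (0.79), and Tox, the transcription factor of exhausted cells, at 30.1, 8.79 and 24.3 (−0.30). For Pdcd1, Lag3 and Tox it was TG Aire+/- that stood apart, with the lowest value. The 4 lower genes were Nr4a2, given above, Ptpn6, Dgka and Cd160, and of these Cd160 is a receptor of the cell surface. Ptpn6, the SHP-1 phosphatase, and Dgka, which degrades diacylglycerol, differed by −1.63 and −1.14. Cd160 stood at 39.7, 41.4 and 18.2 RPKM (−1.09). Of 15 costimulatory receptors, Tnfrsf4 differed by 1.22 and Cd7 by −1.11, and 0 others passed 1. Of 30 cytokine receptors and STATs 10 were lower and 2 higher, with Il27ra at 44.2, 43.4 and 8.66 RPKM (−2.23), Il4ra at 58.5, 80.0 and 16.7 (−1.75) and Ifngr2 at 16.1, 10.5 and 3.37 (−1.97). Il10ra, the receptor chain for IL-10, was higher, at 13.8, 16.4 and 38 RPKM (1.40).

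Cell cycle genes were higher in TG Aire-/-. Of 47 with 5 RPKM, 28 were higher by at least 1 and 0 lower, where 12.6% of all genes were higher, and the median of 1.14 was 1.04 with length medians set to 0. Cdk1, the kinase that starts mitosis (chromosome 10, 69335146 to 69352938), stood at 4.50, 10.5 and 25.6 RPKM (2.27). Its cyclins Ccnb1 (chromosome 13, 100778650 to 100786570) and Ccna2 stood at 2.99, 7.90 and 24.6 RPKM (2.68) and at 12.9, 32.9 and 70.7 (2.36). Cdkn3, a phosphatase of cyclin-dependent kinases (chromosome 14, 46760541 to 46771669), differed by 2.79, Tk1, a thymidine kinase, by 2.54 and Birc5, which encodes survivin, by 2.33. For the 6 genes just named TG Aire-/- was the highest library and Aire-/- the lowest. Genes of DNA replication were closer, with Pcna, the sliding clamp, at 130.3, 218 and 123 RPKM (−0.08) and the helicase subunits Mcm2 and Mcm4 at 23.9, 37.7 and 18.2 and at 34.0, 47.7 and 27.3. Mki67 stood at 30.9, 63.3 and 54.5 RPKM (0.80) and Top2a at 29.7, 57.2 and 38.3 (0.36). Ccnd2, a cyclin of the G1 phase, was lower at 33.0, 34.7 and 16.3 RPKM (−0.97).

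S100, annexin and galectin genes, which are high in effector and memory cells, were higher too. Their list also holds genes outside these families, such as Vim, Crip1, Lmna, Emp3 and Ahnak. Of its 25 genes, 13 were higher by at least 1, with Vim, Crip1, Lmna and Emp3 among them, and 1 was lower. The median of 1.14 became 0.60 with length medians set to 0. S100a4, a calcium-binding protein of motile cells (chromosome 3, 90603771 to 90606045), stood at 58.3, 146 and 583 RPKM (3.30). S100a6 stood at 55.4, 97 and 318 RPKM (2.5), Lgals3, a galactose-binding lectin, at 33.4, 34.7 and 249 (2.87), and Lgals1 at 203, 683 and 709.5 (1.80). Vim, an intermediate filament protein, stood at 259, 361 and 1073 RPKM (2.05), and Crip1 and Anxa2 differed by 2.17 and 2.07. Ahnak, which encodes a very large scaffold protein, was the member that was lower by 1, at 40.3, 75.6 and 19.2 RPKM (−1.03). Macrophages express S100a4, Lgals3 and Vim as well. The summed myeloid level given above was 2921 RPKM in Aire-/- and 1228 in TG Aire-/-, and its part in these differences was not tested.

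Among genes of energy metabolism and of ribosomes those of the respiratory chain leaned upward, less so once length was considered. Of 42 nuclear genes of the chain 20 were higher by at least 1 and 0 lower, with a median of 0.95 that became 0.46 with length medians set to 0. Cox5b and Cox4i1, subunits of cytochrome c oxidase, stood at 56.7, 110.4 and 198 RPKM (1.78) and at 134, 188 and 397 (1.56), and Ndufb9, of complex I, at 23.7, 39.8 and 90.8 (1.89). Of 19 glycolytic genes 3 were higher, a share near the 12.6% of all genes, with a median of 0.52 and of 0.15 after the same setting, among them Gapdh at 205, 244 and 496 RPKM (1.27). Of 52 ribosomal protein genes 10 were higher, beside 12.6% of all genes, with a median of 0.47 and of 0.03 after the setting. Rps29, of the small subunit, differed by 2.45. Of 24 regulators of apoptosis 5 were higher and 0 lower, beside 12.6% and 9.37% of all genes. Among the 5 was Casp1, the inflammasome protease, at 4.61, 15.1 and 27.1 RPKM (2.33). The median of the apoptosis list was 0.18, and its sign turned under 2 alternatives.

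The largest differences of all joined these groups to genes outside any list. Among the 12 highest were 3 metallothioneins, small proteins that bind zinc and copper. Mt1 (chromosome 8, 94179082 to 94180327) stood at 9.22, 37.2 and 115 RPKM (3.50), Mt2 at 5.48, 17.9 and 56.2 (3.14) and Mt3 at 0.337, 1.69 and 11.9 (3.27). Whole liver is rich in the first of these, with Mt1 at 2125 and 2210.0 RPKM in the CD8-depleted livers of the series. Albumin stood at 3.04, 0.838 and 0.659 RPKM in the CD8+ T libraries, and the part of liver RNA in the metallothionein differences was not tested. Trnp1, a nuclear protein that regulates cell cycle progression (chromosome 4, 133491100 to 133498550), had the highest difference, at 0.545, 0.470 and 19.7 RPKM (3.75), and here TG Aire+/- was level with Aire-/-. The linker histone H1f0 and the core histone Hist1h4i stood at 4.04, 10.5 and 39.9 and at 2.97, 5.42 and 38.7 RPKM. The agouti gene (symbol a) differed by 3.35 and Smpdl3b, a phosphodiesterase, by 2.95. Gm6402 and Rpl32l, with differences of 3.35 and 3.01, may share reads with near-identical copies and are uncertain.

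Of the 12 lowest, 8 were on the eosinophil or duct lists. Those lists were made after the largest differences were read, so this overlap follows from how they were made and is not a result. Clu, a secreted chaperone that whole liver holds at 475 and 1838 RPKM in the CD8-depleted livers (chromosome 14, 65968483 to 65981547), stood at 70.4, 0.0507 and 0.104 RPKM (−6.01), and Dmbt1, a mucosal glycoprotein, at 69.0, 0.243 and 0.483 (−5.56). Prg2, the eosinophil major basic protein, stood at 52.4, 0.646 and 0.213 RPKM (−5.46). The eosinophil ribonucleases Ear1, Ear6, Ear7, Ear3 and Ear12 differed by −4.67, −3.87, −4.24, −3.86 and −3.86, and the last 2 have identical values in the table and were not told apart. With the eosinophil and duct lists set aside, 713 genes were lower in place of 728 and the count of 982 higher was the same. The lowest genes then began with Irs2, the insulin receptor substrate, at 40.0, 20.8 and 0.84 RPKM (−4.48), followed by the Hsp70 genes and Nr4a3. Art2b, an ADP-ribosyltransferase of T cells, stood at 17.9, 20.6 and 0.49 RPKM (−3.67), and Kdm6b, a histone H3 demethylase, at 37.0, 31.9 and 2.43 (−3.47).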

How the data were processed

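The authors deposited RPKM values for 24786 genes in each CD8+ T library. The submitters' processing notes list STAR 2.5.2b as a tool and mm10 as the build. Neither an annotation nor a counting tool is given in the sources used here. No further scaling was applied by default. Genes with at least 5 RPKM in either library and outside the erythroid, B cell and myeloid lists were compared as differences of log2(RPKM + 1), with a pseudocount of 1, and differences of at least 1 were counted. With 1 library a genotype no test was made. Depth was inferred from low values, of which 48.6% to 51.6% were whole reads within 0.1 read, too loose a match to recover reads.

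Named genes were 6 checks, the 12 largest differences each way and up to 6 members of each list each way that differed by at least 1. Other genes were named after their values were seen. Some genes covered by this rule are not reported here. Members and lists were chosen with earlier results of these data known. The alternatives were 2 pseudocounts, 3 filters, 2 scalings, a larger difference, other genes set aside and, chosen after seeing the data, 3 settings on exon length and the eosinophil and duct lists. Exon lengths and positions came from GENCODE vM21. Counting was tested on simulated data. Computation used Python 3.11.15 with pandas 2.3.3.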

Additional observations from a re-analysis of the deposited data

How the results depend on the processing

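Counts past the line moved by over 1.5 times as follows, from 982 higher and 728 lower. A pseudocount of 5 gave 548 and 376, a minimum of 20 RPKM gave 573 and 298, and a difference of at least 2 gave 100 and 152. A minimum of 1 RPKM and no minimum both gave 1093 lower. Equal-sum scaling gave 602 higher, and length medians set to 0 gave 558 higher. Genes longer than the median length alone gave 239 and 429, and shorter genes alone gave 283 lower. Fewer genes enter where a minimum is raised or one side of the median length is left out. For the other moves the cause was not tested. The counts under the remaining settings stayed within 1.5 times. Of the 139 named genes that differed by at least 1, 119 stayed past 1 under both scalings and the length setting. Of the same 139, 0 took the other sign. That count was fixed in advance, because no alternative run could carry a difference of that size past 0. List medians took the other sign for granzymes, cytokines, migration receptors, class I presentation and apoptosis regulators, and for no other list described. Some further list medians moved by over 1.5 times with their sign kept. With shorter genes alone they were −0.62 for naive and central memory genes, −0.08 for costimulatory receptors, −1.44 for the TGF-β list, −1.46 for GTPases and 0.81 for granzymes. With longer genes alone they were −2.72 for immediate early genes and 0.39 for the respiratory chain, and a pseudocount of 5 gave −1.02 for tissue residence. No paired analysis was possible because each genotype had 1 library. Depth limits values near 0.0718 RPKM, which stand for about 3 reads on 2000 bases in TG Aire-/-.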
